A study of Caenorhabditis elegans with 2 samples.

Results

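Mitochondrial chaperone and stress response genes were examined for NFYA-1 binding in Caenorhabditis elegans embryos. The set held 8 of the 19973 protein-coding genes of the nuclear chromosomes, namely Y22D7AL.10, hsp-60, hsp-6, atfs-1, ubl-5, dve-1, clpp-1 and haf-1. The 8 genes were chosen by name from earlier results of these same data, in which Y22D7AL.10 stood at the strongest peak, so their peaks are given as a description, without a test. Chromatin immunoprecipitation followed by sequencing was done on whole late embryos of strain OP404, a hermaphrodite strain of genotype unc-119(tm4063) III; wgIs404. The transgene gives NFYA-1 with GFP-FLAG at its C terminus, and GFP was the target of the immunoprecipitation per the descriptions in the labels. Both biological replicates were of this 1 strain and form 1 group (n = 2), with the age labelled unknown. Region lists hold no expression values, so the labelled stage could not be checked against marker genes, and in whole embryos weak binding in many cells and strong binding in few cannot be told apart. Untagged and input controls were not analysed here, so signal that does not depend on the tagged protein cannot be told apart.

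NFYA-1 is a subunit of NF-Y, a trimeric transcription factor that recognizes the CCAAT box. In mitochondria, newly imported proteins are folded by the chaperone mtHSP70 (hsp-6) and by the chaperonin HSP60 with its lid, the co-chaperonin HSP10 (hsp-60 and Y22D7AL.10). When folding in the mitochondrial matrix fails, worms induce these chaperones through the mitochondrial unfolded protein response (UPRmt). In that response peptides made by the protease ClpP (clpp-1) leave through the transporter HAF-1 (haf-1), the bZIP factor ATFS-1 (atfs-1) enters the nucleus, and the homeodomain protein DVE-1 (dve-1) acts with the ubiquitin-like protein UBL-5 (ubl-5).

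A gene was counted when the summit of a peak fell in a window around any start of its protein-coding transcripts, reaching 1000 bp upstream and 100 bp downstream. The peak list, which holds the 4098 regions that passed the authors' reproducibility analysis, gave such a peak at 6 of the 8 genes, against 14.0% of all protein-coding genes. These 6 genes held 5 distinct peaks, since Y22D7AL.10 and hsp-60 share one. The longer list of 15515 regions made from both replicates pooled, which also holds background regions, gave a region at 8 of 8 genes, against 30.1% of all protein-coding genes. CCAAT stood within 50 bp of the summit, on either strand, at 5 of the 6 genes with a peak (4 of the 5 distinct peaks). This held for 23.0% of the 2214 peaks in the windows of any coding gene, and CCAAT was found in 18.3% of promoter windows of the same length. Choosing these genes with the peaks known fixes part of each count, so nothing particular to the set is read from them.

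The signal, a value of the authors' peak caller in units not given in the sources used here, spanned a wide range within the set. It was 9543 at Y22D7AL.10 and hsp-60, 244 at dve-1, 223 at hsp-6, 76.8 at atfs-1 and 59.5 at ubl-5. The median over the peak list was 109 and the lowest value 58.2, so ubl-5 lay just inside the list, while clpp-1, with 34.4 in the pooled list, was the nearest of the 8 genes outside it. The peak of Y22D7AL.10 and hsp-60 had 39.2 times the signal of dve-1, a ratio that was 37.9 in replicate 1 and 41.7 in replicate 2. The same order of the 5 peaks was found in both replicates. The neighbours dve-1 and hsp-6 did not differ beyond the spread between replicates. The ratio of their signals, taken within each list, was 1.19 in replicate 1 and 1.02 in replicate 2. For the other neighbours this ratio varied less between the replicates than it stood above 1. It was 2.79 in replicate 1 and 2.89 in replicate 2 for hsp-6 over atfs-1, and 1.29 and 1.37 for atfs-1 over ubl-5.

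**Figure D1:**
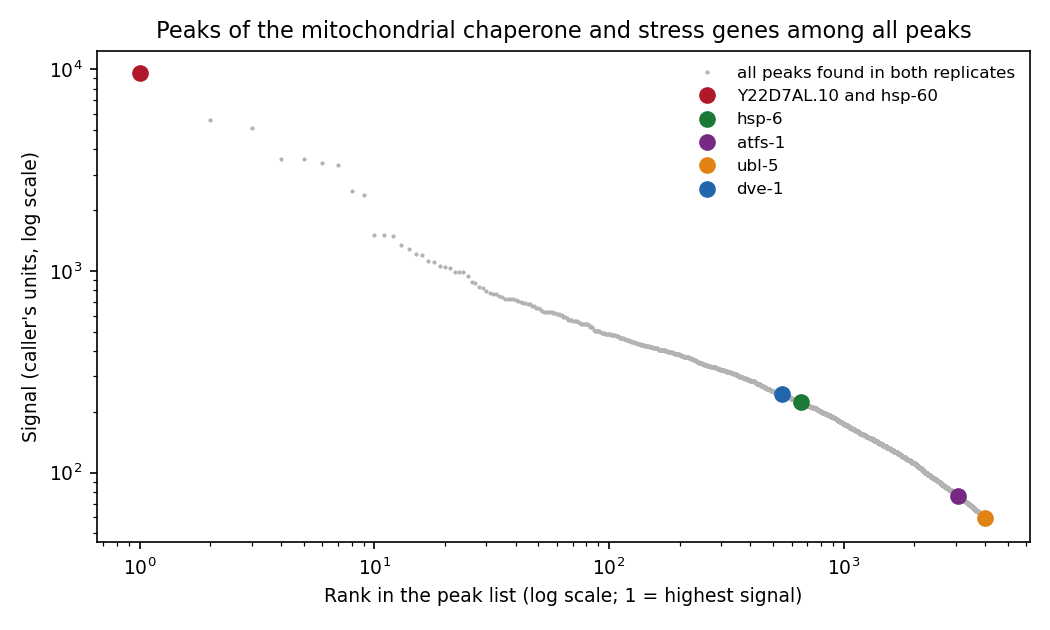
Signal of each peak (caller's units, log scale) against its rank in the peak list (log scale). Grey points are the 4027 peaks with a region in both replicates. Coloured points are the peaks of the genes described: Y22D7AL.10 and hsp-60 at rank 1, dve-1 and hsp-6 at ranks 549 and 656, and atfs-1 and ubl-5 at ranks 3084 and 4013.

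Y22D7AL.10 (WBGene00021248, chrIII:1617151-1618929, minus strand), the homologue of the co-chaperonin HSP10, and hsp-60 (WBGene00002025, chrIII:1619742-1625803, plus strand), the chaperonin itself, lie head to head with 813 bp between their starts. The peak between them had a signal of 4947 in replicate 1 and 4633 in replicate 2 and ranked 1 in each, among 21476 and 28596 regions. Both values were above the next region of the same replicate, which had 2919 in replicate 1 and 2669 in replicate 2. The ratio to that next region was 1.69 in replicate 1, 1.74 in replicate 2 and 1.72 in the peak list. The region was 461 bp wide, against a median of 356 bp, and spanned chrIII:1618920-1619380. Its summit at position 1619136 was intergenic, 207 bp upstream of Y22D7AL.10 and 606 bp upstream of the nearest hsp-60 start. The summits of the 2 replicates were 11 bp apart, against a median of 19 bp over the peaks found in both.

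The region held 3 CCAAT boxes. Of these, 2 on the plus strand flanked the summit, with centres 6 bp to its left and 24 bp to its right, in the same orientation as hsp-60 and the opposite one to Y22D7AL.10. The third lay on the minus strand, centred 197 bp from the summit and 10 bp before Y22D7AL.10 begins. The intergenic stretch that carries all 3 boxes is shown because it lies under the strongest peak in the data. It is the plus strand of build WBcel235 (ce11), chrIII:1618930-1619219, with capitals marking CCAAT or, for a box on the minus strand, ATTGG.
Y22D7AL.10 and hsp-60: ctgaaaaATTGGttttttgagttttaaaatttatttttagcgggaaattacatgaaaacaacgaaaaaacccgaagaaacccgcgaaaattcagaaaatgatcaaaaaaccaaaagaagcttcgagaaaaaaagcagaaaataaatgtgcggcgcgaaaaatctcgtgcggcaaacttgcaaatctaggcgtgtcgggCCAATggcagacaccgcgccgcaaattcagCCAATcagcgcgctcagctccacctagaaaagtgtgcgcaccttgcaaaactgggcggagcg

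The pair of boxes at the summit started 30 bp apart on the same strand. Among the 2214 peaks at coding genes, 156 (7.05%) had 2 or more boxes within 50 bp of the summit, and 2 had a same-strand pair at this spacing. The other one lay at dur-1 (signal 60.2, ranked 3962). Over all 4084 peaks on the nuclear chromosomes, 6 had a same-strand pair at this spacing. Among the peaks at coding genes the most frequent same-strand spacing was 32 bp, in 38 peaks. The right-hand box of the pair continued as CCAATCA, a longer form found near the summit in 6.23% of peaks at coding genes and in 1.25% of 29314 windows of 101 bp centred 200 bp upstream of coding starts. Among the 5 peaks of the set this longer form was found only here. The letters CGCGC, counted on both strands with overlaps, occurred at 3 places within 50 bp of the summit, and at least once in 32.4% of peaks at coding genes and 6.10% of the promoter windows.

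Inside hsp-60 the signals were much lower. A pooled region in an intron, 956 bp downstream of the closest start and so outside the window, had a signal of 26.8 (chrIII:1620537-1620892, ranked 11106). Another had its summit in an intron, 647 bp upstream of an internal start (chrIII:1622303-1622658, signal 25.7, ranked 11996), and did not reach the peak list. Replicate 2 had a region there at a signal of 13.6, and no region of replicate 1 had its summit in the window of that start. A region over the first coding exon of hsp-60 stood only in replicate 2, at a signal of 8.56 and rank 27436.

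The gene hsp-6 (WBGene00002010, chrV:4824124-4826760, minus strand) encodes mitochondrial HSP70, which pulls in and folds imported proteins, and serves as a common reporter of the UPRmt. Its peak had a signal of 110 in replicate 1 and 109 in replicate 2, ranked 749 and 611. The 155 bp region at chrV:4827087-4827241 had its summit 414 bp upstream of hsp-6 and only 186 bp upstream of the divergent gene C37H5.5, which starts 600 bp from hsp-6. The summit lay within exons of the non-coding RNA genes C37H5.15 and C37H5.16. By the peak list's summits this was the peak of the set with the highest GC content, 60.4%. The quartiles over peaks at coding genes were 43.6% and 52.5%. The value depended on the summit used, with 59.4% around that of replicate 1 and 47.5% around that of replicate 2. In replicate 2 the peak of Y22D7AL.10 and hsp-60 had more, 57.4%. The box of the hsp-6 peak was on the plus strand, centred 31 bp from the peak list's summit. The 101 bp around the summit (chrV:4827124-4827224, WBcel235, plus strand) show that box in capitals within GC-rich sequence.
hsp-6: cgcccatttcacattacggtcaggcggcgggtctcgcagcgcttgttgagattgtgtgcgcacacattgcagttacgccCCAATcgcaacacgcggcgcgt

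**Figure D2:**
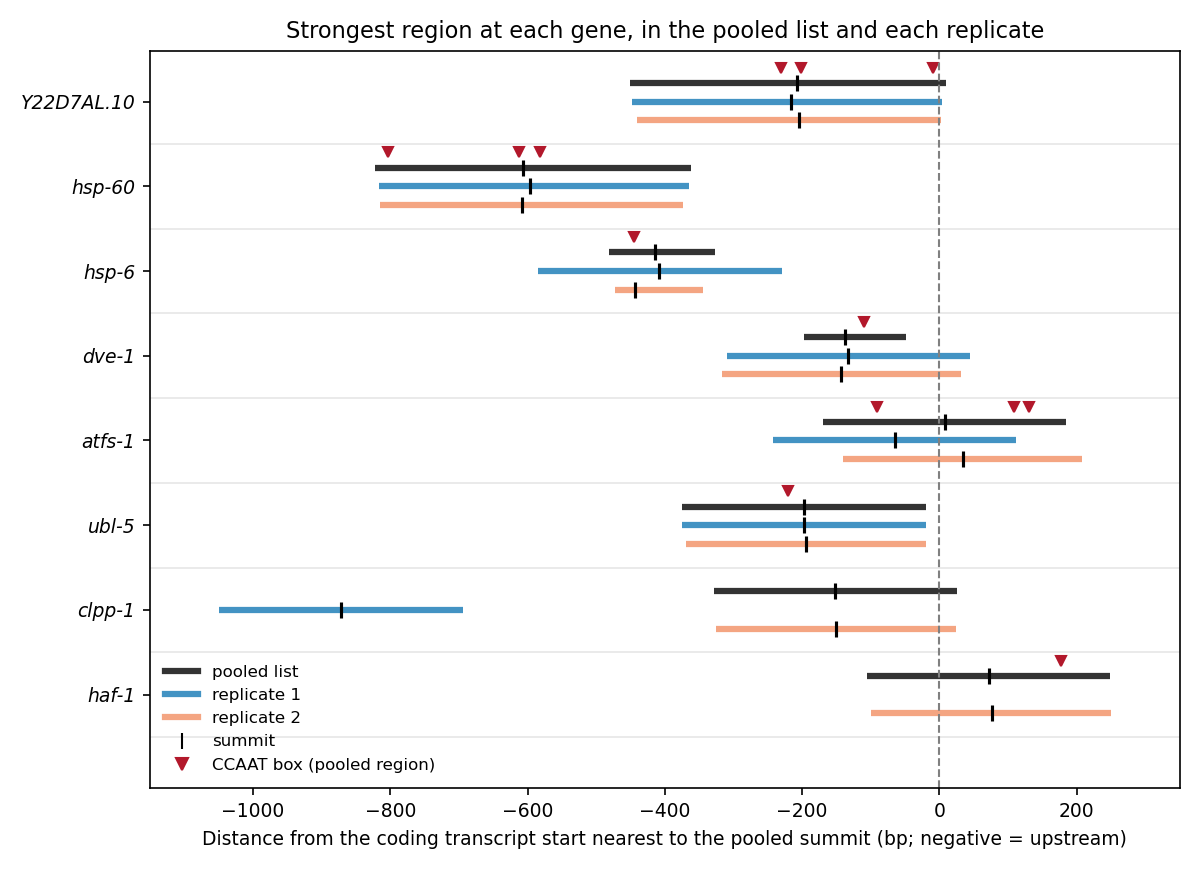
Strongest region in the window of each of the 8 genes, drawn as distance in bp from the coding transcript start nearest to the pooled summit, with negative values upstream. Bars are regions of the pooled list and of each replicate, black ticks are summits, and triangles are CCAAT boxes on either strand in the pooled region. The summits of the replicates lie 3 to 35 bp apart at Y22D7AL.10, hsp-60, hsp-6, dve-1 and ubl-5, and 99 bp apart at atfs-1.

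Among the regulators in the set of 8 genes, dve-1 (WBGene00022861, chrX:427035-433812, minus strand) had the strongest peak. DVE-1 is a homeodomain protein that binds chromatin at mitochondrial chaperone promoters during stress. The signal was 131 in replicate 1 and 111 in replicate 2, ranked 551 and 592, and the summits were 10 bp apart. The 149 bp region at chrX:433861-434009 had its summit 138 bp upstream of the nearest start, within an exon of the non-coding RNA gene ZK1193.8. No other coding gene had this peak in its window. One box on the minus strand, in the same orientation as dve-1, was centred 28 bp from the summit and 110 bp upstream of the start. It is shown in capitals in the 101 bp around the summit (chrX:433900-434000, WBcel235, plus strand), where it reads ATTGG.
dve-1: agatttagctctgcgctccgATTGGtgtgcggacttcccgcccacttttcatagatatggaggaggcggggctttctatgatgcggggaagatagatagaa

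Within dve-1, which has 9 annotated coding starts, the lists held further regions. A peak in an intron had its summit 176 bp downstream of an internal start (position 431809, signal 117, ranked 1858), outside the window, and no box within 50 bp of the summit. A pooled region in the 5' UTR, 382 bp upstream of another internal start, had a signal of 44.1 (ranked 5512) and stayed below the peak list. It also lacked a box. The matching region had a signal of 15.7 in replicate 1 and 26.1 in replicate 2, ranked 11958 and 4588.

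The gene atfs-1 (WBGene00013878, chrV:14193663-14197700, plus strand) encodes the bZIP factor that is imported into healthy mitochondria and moves to the nucleus under stress. Its peak had a signal of 39.4 in replicate 1 and 37.9 in replicate 2, ranked 3267 and 3009. The region at chrV:14193497-14193852 covered the annotated start, and its summit lay 8 bp downstream of one of the 5 starts, in the 5' UTR. The summits of the replicates were 99 bp apart, at positions 14193602 and 14193701. Only 4.94% of the peaks found in both replicates had summits at least this far apart. Whether this peak counted as holding a box depended on the summit used. None stood within 50 bp of the peak list's summit or that of replicate 2, 1 stood within 50 bp of that of replicate 1, and 3 stood in the region, centred 99, 100 and 122 bp from the peak list's summit. The 101 bp around the summit of replicate 1 (chrV:14193552-14193652, WBcel235, plus strand) lie upstream of the gene and carry 1 of these boxes, in capitals, followed by runs of CT.
atfs-1: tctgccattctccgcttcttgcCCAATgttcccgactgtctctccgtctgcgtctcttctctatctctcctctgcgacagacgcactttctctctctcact

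The letters CTCTC stood at 3 places within 50 bp of the peak list's summit of atfs-1, and within that distance at none of the other 4 distinct peaks of the set. They were found in 42.4% of peaks at coding genes and 15.9% of promoter windows.

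The gene ubl-5 (WBGene00006726, chrI:5607826-5608841, minus strand) encodes the ubiquitin-like partner of DVE-1. Its peak was the weakest of the set, with a signal of 30.6 in replicate 1 and 27.6 in replicate 2. Its ranks of 4336 and 4306 in the replicates lay outside the 4098 strongest regions of each, while the peak made from both ranked 4013. The region agreed closely in place, with summits 3 bp apart, the one of the peak list lying 198 bp upstream of ubl-5 between genes. A box was centred 22 bp from the summit, in the orientation opposite to ubl-5. The letters TTCNNGAA, inverted units of a heat shock element, stood within 50 bp of the summit. Those letters were found in 2.98% of peaks at coding genes and 6.54% of promoter windows, and near no other peak summit of the set. Further than 50 bp from its summit, the region of Y22D7AL.10 and hsp-60 also held them, at 1 place.

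**Figure D3:**
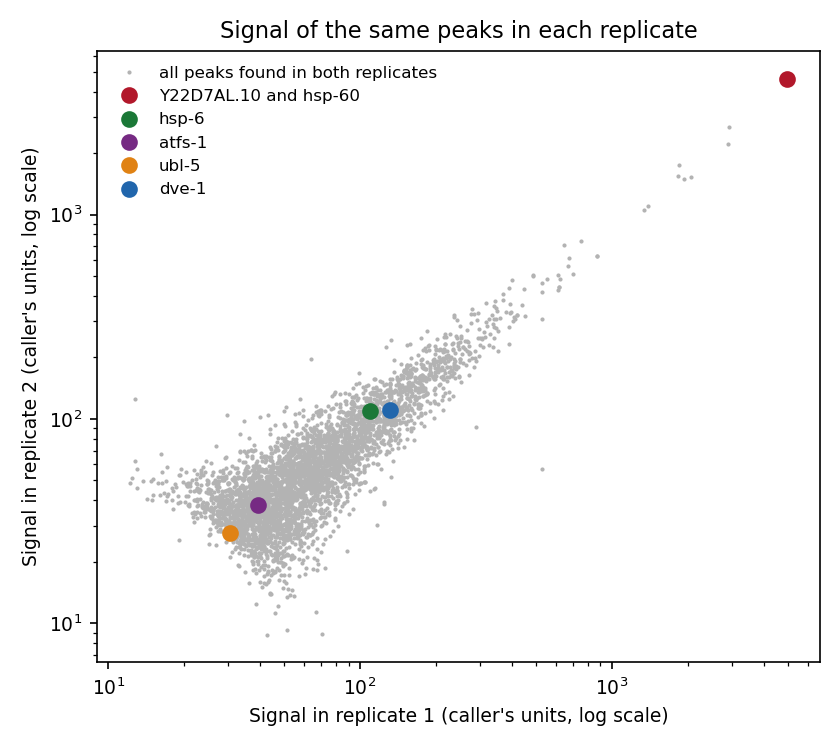
Signal of each peak in replicate 1 against replicate 2 (caller's units, log scales). Grey points are the 4027 peaks with a region in both replicates, and coloured points are the peaks of the genes described. The peak of Y22D7AL.10 and hsp-60 is highest on both axes (4947 and 4633), and that of ubl-5 lies low on both (30.6 and 27.6).

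The protease and transporter genes had only regions below the peak list. For clpp-1 (WBGene00014172, chrII:10300714-10302842, minus strand), which encodes the matrix protease subunit ClpP, the pooled region had a signal of 34.4 and ranked 7472. The deposited −log10 q-value of that region was 0.393, against 1.77 at ubl-5, and the pooled list also holds background regions. The summit of the clpp-1 region lay 152 bp upstream of an internal start, inside an intron of clpp-1 and within a tRNA gene (WBGene00014638) and the non-coding RNA gene ZK970.11. The replicates placed their regions differently. Replicate 2 had its summit 151 bp upstream of the same start, at a signal of 13.6 and rank 12388. Replicate 1 had 1 region 92 bp upstream of the first start (signal 12.6, ranked 18179) and another 272 bp upstream of the internal one (signal 11.7, ranked 20726). No CCAAT stood in the pooled region. A peak with more signal (176, ranked 990) lay in an intron further into clpp-1, 910 bp downstream of that internal start. It had no box within 50 bp of the summit and lay in the window of the Mediator subunit gene mdt-22.

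For haf-1 (WBGene00001811, chrIV:17376427-17379310, plus strand), which encodes the peptide transporter of the mitochondrial inner membrane, the pooled region was the weakest of the set. It had a signal of 24.9, ranked 12767 of 15515, and a deposited −log10 q-value of 0.0623, against 1.77 at ubl-5 and 2.88 at Y22D7AL.10. Its summit lay 72 bp downstream of the start, in the coding sequence, with no box within 50 bp. Replicate 2 had a signal of 10.4 there, ranked 20068. A region of replicate 1 covered the same position (signal 12.2, ranked 19170), but its own summit was outside the window. At this strength a region cannot be told apart from the background regions that the list also holds.

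The genes whose signals came closest to those of a member were found by the summed absolute difference in log2 signal over the pooled list and both replicate lists, 3 values each, among 4971 genes with a region in all 3. For Y22D7AL.10 and hsp-60 these were ift-43 and mdt-26, which share the peak ranked 2 (signal 5564), at a summed difference of 2.34. Every other member with a value had its closest gene at 0.0960 or less. For hsp-6 they were gly-6 and cgh-1 (0.0574 and 0.0637) and for dve-1 mekk-3 and fbxa-142 (0.0727 and 0.0771). For atfs-1 they were cpn-2 and K04F10.3 (0.0739 and 0.0790) and for ubl-5 BE0003N10.1 and chin-1 (0.0562 each). The closest genes to clpp-1 were ZK637.4 and C33G3.6 (0.0960 and 0.113). For clpp-1 the values were not all of one place. Its strongest region in replicate 1 (signal 12.6) lay at the first start, apart from the regions of the pooled list and replicate 2. The gene haf-1 lacked a region in the window in replicate 1. These values describe signal only.

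The 8 genes belong to a wider system of mitochondrial protein quality control, for which 64 further genes were listed. Of these, 19 (29.7%) had a peak, 16 had only a pooled region below the peak list and 29 had neither, again against 14.0% of all coding genes with a peak. Another coding gene shared the peak at 10 of the 19 genes. Counted by peak rather than by gene, 29.9% of peaks at coding genes were shared. The 64 genes were also listed with earlier results of these data known, so no excess is read from their counts. The median signal of the strongest peaks of these 19 genes was 110, close to the median of 108 over all peaks at coding genes. CCAAT stood within 50 bp of the summit at 5 of the 6 members with a peak (4 distinct peaks), at 1 of these 19 genes, the import gene tin-9.1, and at 23.0% of all peaks at coding genes. Since the members were chosen with their peaks known, nothing particular to them is read from this.

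Further chaperones and their partners had a peak in 4 of 7 cases. The GrpE homologue C34C12.8, the nucleotide exchange factor of mtHSP70, had a signal of 120 in replicate 1 and 127 in replicate 2, with its summit 157 bp upstream of the start. In the peak list hsp-6 had 223 and C34C12.8 had 245. The others were the prohibitin genes phb-2 (201) and phb-1 (199, shared with Y37E3.8) and the HSP90 homologue trap-1 (118). Prohibitins form a scaffold of the inner membrane. None of these 4 peaks held a box within 50 bp of the summit. The mtHSP70 co-chaperone gene dnj-10 had only a pooled region (signal 36.7), and bcs-1 and dnj-21 had no pooled region with its summit in their windows.

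**Figure D4:**
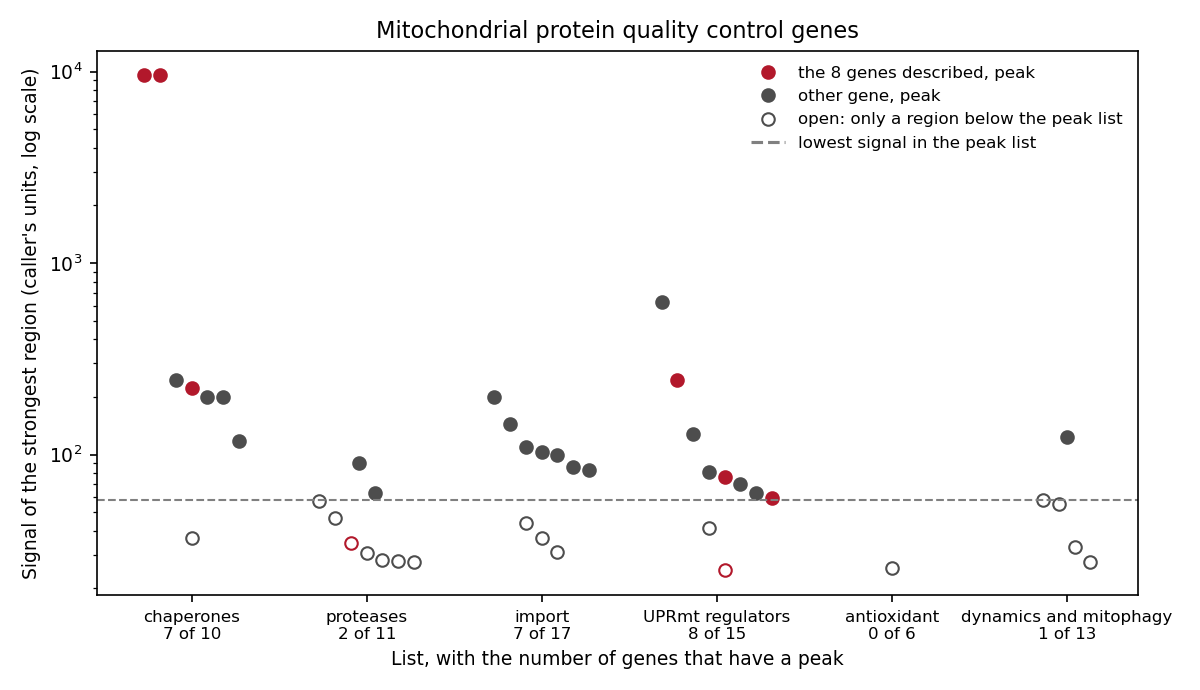
Signal of the strongest region (caller's units, log scale) at each listed gene, by list, with the number of genes that have a peak out of the list below each name. Red marks the 8 genes described and grey the others, filled for a peak and open for a region below the peak list, whose lowest signal of 58.2 is the dashed line. Genes without a pooled region in their windows are not drawn, and the 2 points at 9543 share a peak.

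Of the regulators beyond the members, 5 of 11 had a peak. The strongest was that of the acetyltransferase gene cbp-1 (signal 623, ranked 55), with 337 in replicate 1 and 291 in replicate 2, at 868 bp upstream of the start. It was followed by the histone demethylase gene jmjd-1.2 (128), the histone deacetylase gene hda-1 (80.7, with the summit 952 bp upstream), the kinase gene gcn-2 (69.8) and set-6 (63.2). The set-6 peak had 24.7 in replicate 1 and 38.6 in replicate 2, ranked 5673 and 2949. The peak of jmjd-1.2 was shared with F29B9.11 and the mitochondrial ribosomal protein gene mrps-21, that of hda-1 with ril-1 and that of gcn-2 with Y81G3A.1. The chromatin genes lin-65 and met-2, which act with DVE-1 in the UPRmt, had no pooled region with its summit in their windows, nor had jmjd-3.1, zip-3 and baz-2.

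Genes of protein import had a peak in 7 of 17 cases, led by the outer membrane receptor gene tomm-20 (201) and the inner membrane channel gene timm-23 (145). They were followed by the metaxin gene mtx-1 (110) and the small TIM chaperone gene tin-9.2 (103). The peaks of timm-23 and mtx-1 each lay in the window of another coding gene as well, and that of tin-9.2 in those of dli-1 and exos-4.1. Other genes of the protease list had a peak in 2 of 10 cases. These were the AAA protease gene spg-7 (90.9, shared with Y47G6A.14) and the inner membrane peptidase gene immp-1 (63.0). The immp-1 peak had 22.9 in replicate 1 and 44.0 in replicate 2, ranked 6288 and 2542. A further 6 genes of the protease list had only a region below the peak list. The protease gene lonp-1 and the ClpX homologue D2030.2, both named in the UPRmt, were among those 6, at 27.5 and 46.9. Mitochondrial antioxidant genes had a peak in 0 of 6 cases, sod-2, sod-3, prdx-3, trx-2 and trxr-2 having no pooled region with its summit in their windows either. Dynamics and mitophagy genes had a peak in 1 of 13, the parkin homologue pdr-1 (123), which shares it with cyk-4.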

How the data were processed

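ChIP-seq of NFYA-1-GFP was measured in 2 replicates of 1 group. The authors deposited narrowPeak lists on ce11 per replicate, for both pooled, and for regions past an IDR reproducibility analysis, per the listings deposited with the files. The deposited signal per region has a scale that no source used here states. Over 4027 peaks found in both replicates the pooled signal was a median of 0.999 times the sum of the replicates' signals, so values of different lists are not on one scale, and ranks were used between lists. The deposited −log10 q-value was used only as a description. No source used here names the aligner, the caller or its thresholds. Read depth is unknown, so no counting interval is given. Lists on ce10 were not used.

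Coding starts (29314, of 19973 genes) were those of Ensembl release 115, and sequences were read from RefSeq's WBcel235, whose chromosome lengths held all regions. Summits were placed in windows and boxes searched on both strands with Python 3.11.15 (numpy 2.4.6, matplotlib 3.10.9), in functions tested on simulated data. A region could be given to several genes, as for 29.9% of the 2214 peaks at coding genes. Promoter windows for letter searches were 101 bp, centred 200 bp upstream of each start, and letters searched could overlap one another, as CCAAT and CCAATCA do.

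The members, lists and searches were chosen with earlier results of these data known. Of 72 listed genes, 72 matched the annotation. Named were all members, genes sharing their peaks, in each list the top 4 by peak signal (every one where 5 or fewer had a peak), and the 2 genes most like each member. Any other gene was named after its values were seen. With 1 group no comparison between groups was made. Alternatives were other windows, start codons, overlap of at least 1 bp, nearest starts, the upper 50% of peaks, each replicate alone, and other box searches.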

Additional observations from a re-analysis of the deposited data

How the results depend on the processing

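A count was taken as kept when it stayed within 1.5 times its value. The 6 members with a peak ranged from 4 to 7 and the 8 with a pooled region from 7 to 8, hsp-60 leaving the peak count with 500 bp upstream and, like hsp-6, with nearest starts only, and clpp-1 joining it with 2000 bp upstream or by overlap. Members with CCAAT near the summit went from 5 to 3 with nearest starts only and to 2 with CCAATCA, in both cases because fewer genes or boxes qualify by construction. In the upper 50% of peaks the wider list went from 19 to 10 genes and all coding genes from 2790 to 1457. Leaving out a replicate, with as many of the strongest regions of the other as the peak list holds, gave 5 members with a peak, 7 to 8 with a pooled region, 4 to 5 with CCAAT, 17 to 20 of the wider list and 2660 to 2830 coding genes. Leaving out either replicate, ubl-5 lost its peak. Without replicate 2, haf-1 also lost its region and atfs-1 gained CCAAT near the summit. A box counted only when all its letters lay within the distance searched. The atfs-1 boxes centred 99 and 100 bp from the peak list's summit were therefore not counted within 100 bp. On that rule CCAAT within 100 bp was found at 5 members and 36.6% of peaks at coding genes. CCAAT anywhere in the region was found at 6 members, atfs-1 included, and 50.4% of peaks. No paired analysis was possible because there was 1 group. Without read counts, regions near the end of the pooled list cannot be weighed by depth.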
